A study of Mus musculus with 3 samples.

Results

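The genes described here are 41 genes of mitosis, the spindle and the kinetochore, taken from the microarray data of mouse embryonic stem (ES) cells with a deletion of Nr0b1, also called Dax1. They were chosen by name, and a probe belonged to the set if its gene name was one of the 41. On the array 58 of 55681 probes carried such a name, and all 41 genes were among the 22432 genes that passed the filter on dim probes and were tested, out of 35019 gene names. They were divided into 14 cyclin and kinase genes and 27 spindle and kinetochore genes.

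Male ES cells of 3 groups, derived from the EB5 line, were compared, with 3 arrays per group and 9 arrays in all. KO/Y ES cells had lost the floxed exon of Nr0b1 and were collected several passages after the deletion. fl-/Y +Tx ES cells carried the floxed Nr0b1 allele and had been treated with 4-hydroxy tamoxifen (Tx) for 4 days, and fl-/Y -Tx ES cells carried the same allele and received no Tx. All 3 groups descend from cells that constitutively express Egfp and MerCreMer, a Cre recombinase that is active only in the presence of Tx, so the early comparison joins the deletion with the Tx treatment itself. The sources used here do not say whether the KO/Y samples come from 1 clone, whether feeder fibroblasts were present in the cultures used for RNA, or which array holds which of the triplicate samples, and array numbers follow the place on the slides. The study followed the proliferation and the cell cycle of these cells, including the G2/M phase, in which the genes described here act. By flow cytometry of DNA content it reported more KO/Y ES cells in G2/M phase and an unaltered share in G1 phase.

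Values are log2 signals relative to the 75th percentile of all signals on the same array, so a value of 0 lies at that percentile and a difference of 1 between groups is 2-fold. The signal of the targeted gene Nr0b1 was -6.37, -6.20 and -6.22 on the KO/Y arrays, where its probe was well above background on 0 of 3 arrays, -2.58, -2.66 and -2.42 on the fl-/Y +Tx arrays and 4.02, 4.18 and 4.10 on the fl-/Y -Tx arrays. It was thus 101-fold lower in fl-/Y +Tx than in fl-/Y -Tx cells (adjusted p = 5.38e-09 from limma), although whether the probe lies in the deleted exon was not determined. Between 51.7% and 58.4% of the probes were well above background on each array, 0 spots were saturated, and arrays of a group correlated at 0.9943 or more. The arrays lay on 2 slides. Slide 1 held the 3 fl-/Y -Tx arrays and fl-/Y +Tx array 1, and slide 2 held the 3 KO/Y arrays and fl-/Y +Tx arrays 2 and 3, so that slide and group cannot be told apart for KO/Y against fl-/Y -Tx except through fl-/Y +Tx ES cells.

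Mitosis begins when B-type cyclins activate the kinase Cdk1, which the kinase Wee1 holds inactive and the phosphatases of the Cdc25 family release. Aurora and Polo-like kinases then build the spindle, chromosomes attach to it through kinetochores, and the spindle checkpoint holds back the anaphase-promoting complex until every chromosome is attached. Transcripts of most of these genes accumulate in late S and G2 phase and disappear in G1, so their levels in a population depend on the share of cells in G2 and M phase as well as on the level in each cell. In RNA of whole cultures alone, the share of cells of a phase or type and the RNA per cell cannot be told apart.

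A known feature of many promoters of this class is the cell cycle genes homology region (CHR), with the core TTTGAA near the transcription start, often accompanied upstream by CCAAT boxes. Both motifs were searched on both strands of windows of 300 bases that end 50 bases after RefSeq transcription starts on GRCm38.p6. Windows were found for 34 of the 41 genes, 36 windows in all. TTTGAA was present in 25 of these 36 windows (69.4%) and in 17.9% of all 32851 windows of the same length. CCAAT was present in 29 (80.6%) and in 37.4% of all windows, and 23 windows (63.9%) held both, against 6.95% of all windows. In 22 genes a TTTGAA lay within 50 bases of the start on either side. Such a match describes letters in a window and shows neither binding nor use of the site.

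The promoters below belong to genes whose signals are described in the following paragraphs. They are shown from 110 bases before to 25 bases after the start, on the coding strand from 5′ to 3′, with matches in capitals. TTCAAA and ATTGG are the same motifs on the opposite strand. The first genes were lower both in KO/Y and in fl-/Y +Tx than in fl-/Y -Tx ES cells.
Racgap1, chr15:99651632-99651766, minus strand: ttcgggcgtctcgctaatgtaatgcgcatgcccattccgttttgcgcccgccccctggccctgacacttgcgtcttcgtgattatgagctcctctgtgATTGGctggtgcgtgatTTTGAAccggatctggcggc
Cenpa, chr5:30666776-30666910, plus strand: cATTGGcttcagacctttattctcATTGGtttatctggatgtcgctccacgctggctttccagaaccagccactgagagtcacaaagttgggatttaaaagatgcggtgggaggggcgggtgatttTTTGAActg
Ccnb2, chr9:70421530-70421664, minus strand: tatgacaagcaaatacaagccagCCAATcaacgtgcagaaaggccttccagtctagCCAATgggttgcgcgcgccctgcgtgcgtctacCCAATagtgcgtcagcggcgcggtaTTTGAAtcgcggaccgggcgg
Ccnf, chr17:24251385-24251519, minus strand: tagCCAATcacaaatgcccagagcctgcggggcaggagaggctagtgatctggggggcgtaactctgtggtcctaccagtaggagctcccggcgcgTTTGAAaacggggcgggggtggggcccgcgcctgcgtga
Cdc20, chr4:118437319-118437453, minus strand: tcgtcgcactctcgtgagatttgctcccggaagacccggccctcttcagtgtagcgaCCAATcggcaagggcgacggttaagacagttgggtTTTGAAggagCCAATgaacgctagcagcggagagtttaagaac
The next genes were lower in KO/Y than in fl-/Y +Tx ES cells. Like the first, they were picked among genes that hold both motifs.
Cdk1, chr10:69352888-69353022, minus strand: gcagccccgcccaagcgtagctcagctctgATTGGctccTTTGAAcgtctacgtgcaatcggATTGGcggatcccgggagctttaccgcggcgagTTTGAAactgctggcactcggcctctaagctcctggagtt
Top2a, chr11:99024165-99024299, minus strand: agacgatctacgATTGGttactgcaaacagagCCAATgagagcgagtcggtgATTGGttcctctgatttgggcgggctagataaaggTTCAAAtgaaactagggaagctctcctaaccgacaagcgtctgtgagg
Prc1, chr7:80294366-80294500, plus strand: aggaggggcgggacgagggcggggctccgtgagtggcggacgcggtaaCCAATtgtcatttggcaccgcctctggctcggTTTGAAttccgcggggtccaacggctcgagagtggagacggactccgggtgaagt
Kif11, chr19:37376272-37376406, plus strand: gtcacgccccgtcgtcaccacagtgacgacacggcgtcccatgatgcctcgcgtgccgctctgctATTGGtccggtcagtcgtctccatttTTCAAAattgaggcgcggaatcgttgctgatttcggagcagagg
In Mad2l1, which was lower in every comparison, and in Pttg1, the gene that was higher in KO/Y ES cells, the same stretch held neither motif.
Mad2l1, chr6:66535111-66535245, plus strand: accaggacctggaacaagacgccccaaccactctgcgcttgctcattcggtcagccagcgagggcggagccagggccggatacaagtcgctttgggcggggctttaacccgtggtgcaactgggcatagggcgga
Pttg1, chr11:43425957-43426091, minus strand: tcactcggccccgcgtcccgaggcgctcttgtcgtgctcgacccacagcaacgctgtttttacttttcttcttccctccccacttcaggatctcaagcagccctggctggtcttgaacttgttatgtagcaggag
Among genes with a window, TTTGAA was present in 17 of the 24 that were lower in KO/Y than in fl-/Y -Tx ES cells, in 6 of the 9 that did not pass the test and in 0 of 1 that was higher. It was present in 7 of the 12 that were lower in KO/Y than in fl-/Y +Tx ES cells and in 16 of the 21 that did not pass. For fl-/Y +Tx over fl-/Y -Tx ES cells these counts were 12 of 16 and 11 of 18.

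Signals of the mitotic genes were lower in both groups in which Nr0b1 had been deleted, and most changes were below 2-fold. In KO/Y over fl-/Y -Tx ES cells 30 of the 41 genes were lower at an adjusted p under 0.05, 1 was higher and 10 did not pass the test, where 26.4% of all genes tested were lower and 20.6% were higher. The median log2 fold change of the 41 genes was -0.395, against -0.063 for all genes tested. In fl-/Y +Tx over fl-/Y -Tx ES cells 20 genes were lower and 0 were higher (24 lower and 3 higher at an unadjusted p under 0.05), with 14.7% lower and 11.9% higher among all genes, and the medians were -0.265 and -0.064. In KO/Y over fl-/Y +Tx ES cells 14 were lower and 1 was higher, with 14.1% lower and 12.1% higher among all genes, and the medians were -0.129 and 0.008. Only Racgap1 passed the adjusted p together with a 2-fold limit, in KO/Y over fl-/Y -Tx ES cells, where 2.84% of all genes were lower and 4.72% higher by that rule. It was met by none of the 41 genes in fl-/Y +Tx over fl-/Y -Tx (0.762% of all genes lower, 1.75% higher) or in KO/Y over fl-/Y +Tx cells (1.05% lower, 2.37% higher). Of the 14 cyclin and kinase genes 12 were lower in KO/Y than in fl-/Y -Tx ES cells (median -0.488), 8 in fl-/Y +Tx than in fl-/Y -Tx (median -0.336) and 6 in KO/Y than in fl-/Y +Tx ES cells (median -0.21). Of the 27 spindle and kinetochore genes 18, 12 and 8 were lower in the same order of comparisons, with medians of -0.349, -0.18 and -0.074. These comparisons share arrays and are not independent of each other.

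**Figure D1:**
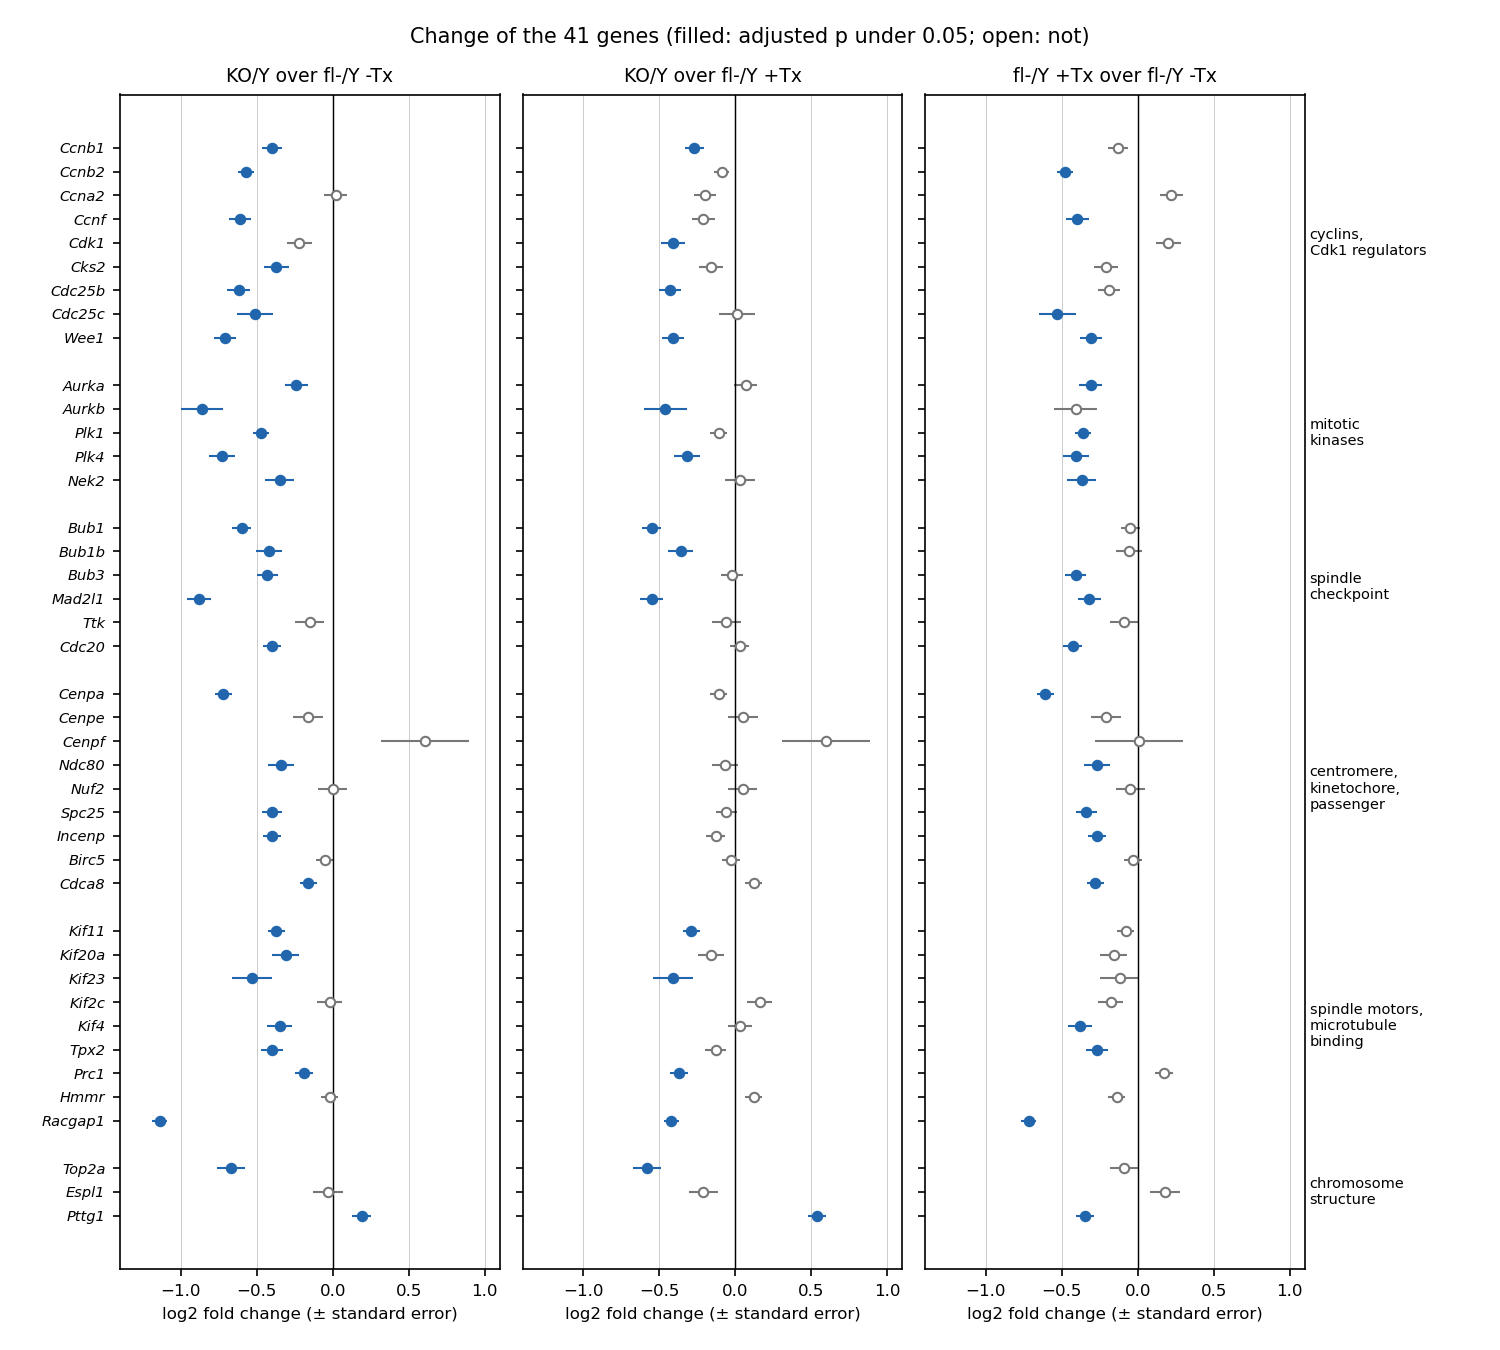
Log2 fold change (x axis) of each of the 41 genes (y axis), by role, in the 3 comparisons. Points are estimates from limma with their standard errors, and filled points have an adjusted p under 0.05. In KO/Y over fl-/Y -Tx ES cells 30 filled points lie left of 0 and 1 lies right of it.

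The signals of all 3 arrays of a group lay below those of the other group for 32 genes in KO/Y against fl-/Y -Tx ES cells (33.2% of all genes), for 26 in fl-/Y +Tx against fl-/Y -Tx ES cells (28.9%) and for 20 in KO/Y against fl-/Y +Tx ES cells (21.3%). They lay above for 1 (24.5% of all genes), 4 (18.2%) and 3 genes (18.4%) in the same order of comparisons. Bright probes were somewhat lower as a class: with all genes tested split by mean signal into 4 classes of equal size, 24 of the 41 genes were in the brightest, and in this class 35.9% of all genes were lower in KO/Y than in fl-/Y -Tx ES cells, against 18 of the 24, with medians of -0.107 and -0.397. With slide as a block in the fit, 17 genes were lower in KO/Y than in fl-/Y -Tx ES cells (12.3% of all genes), all of them among the 30. Cks2, Cdc25c, Aurka, Nek2, Bub1b, Bub3, Cdc20, Ndc80, Cdca8, Kif11, Kif20a, Kif4 and Prc1 were no longer called in that fit, nor was Pttg1. The counts were then 8 for fl-/Y +Tx over fl-/Y -Tx ES cells (5.19%), namely Ccnb2, Ccnf, Plk1, Plk4, Cdc20, Cenpa, Spc25 and Racgap1, and 14 for KO/Y over fl-/Y +Tx ES cells (11.1%), where Aurkb was lost and Ccnf gained, and the medians were -0.413, -0.274 and -0.145. On slide 1 alone, with 1 fl-/Y +Tx array against the 3 fl-/Y -Tx arrays, 5 genes were lower (3.88% of all genes). This fit takes its spread from the fl-/Y -Tx arrays and assumes that the lone array varies like them. On slide 2 alone, with the 3 KO/Y arrays against 2 fl-/Y +Tx arrays, 6 were lower (6% of all genes).

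**Figure D2:**
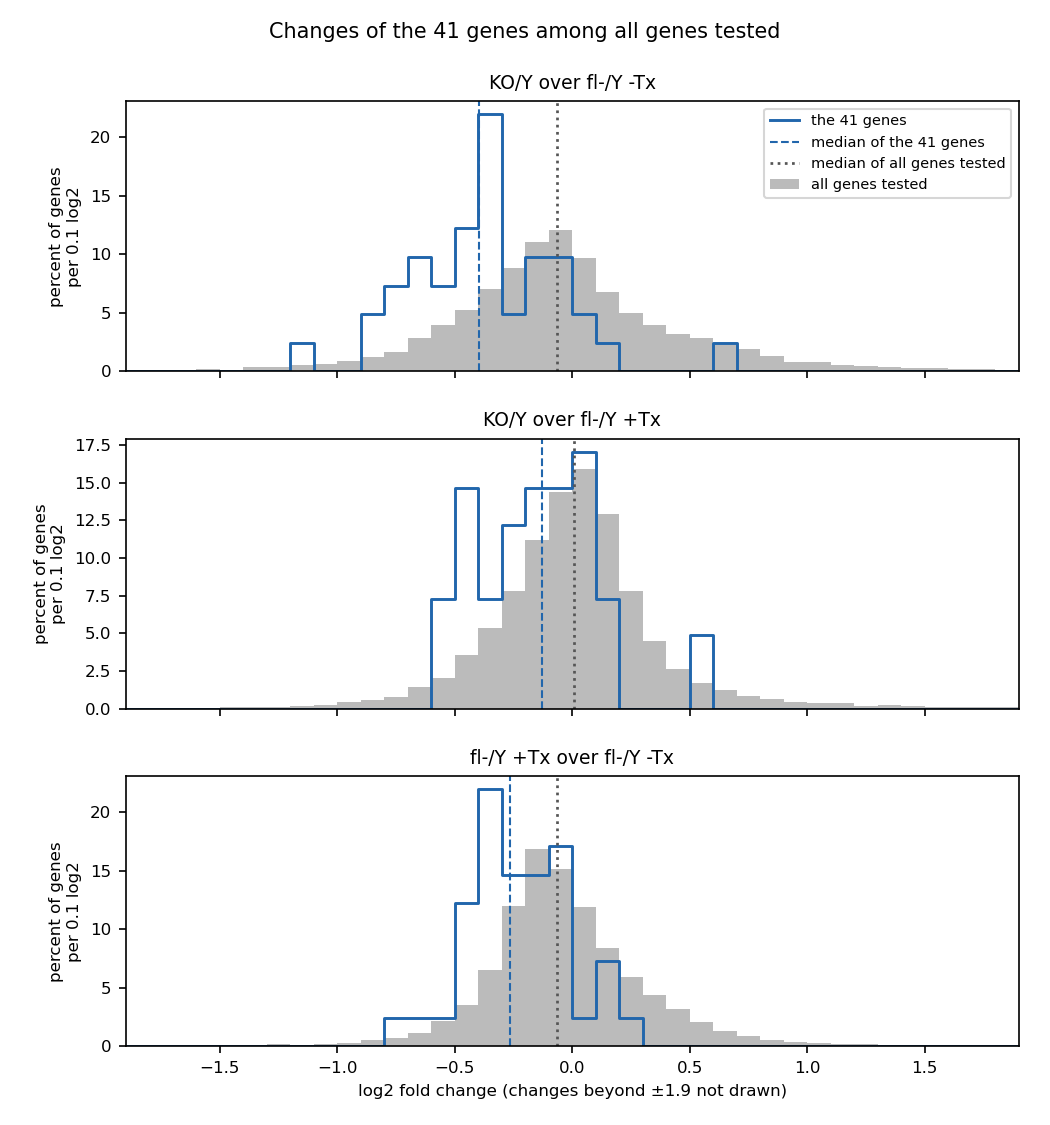
Share of genes (y axis, in percent per 0.1 log2) by log2 fold change (x axis) for the 41 genes (line) and all 22432 genes tested (bars). Broken and dotted lines mark medians, which are -0.395 and -0.063 in KO/Y over fl-/Y -Tx ES cells.

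Cyclins and regulators of Cdk1 were lower in KO/Y than in fl-/Y -Tx ES cells for 7 of 9 genes, with a median of -0.51. In fl-/Y +Tx over fl-/Y -Tx ES cells and in KO/Y over fl-/Y +Tx ES cells 4 of 9 were lower each, with medians of -0.213 and -0.215. Among all genes tested 26.4%, 14.7% and 14.1% were lower in the same order of comparisons. Ccnb1 encodes cyclin B1, the partner of Cdk1 at the entry into mitosis. Its signal was 4.29, 4.23 and 4.39 on the KO/Y arrays, 4.53, 4.56 and 4.63 on the fl-/Y +Tx arrays and 4.73, 4.67 and 4.71 on the fl-/Y -Tx arrays. By this probe, the brightest, the 3 groups did not overlap, and the test was passed for KO/Y ES cells, which differed on the log2 scale by -0.40 (standard error 0.064, adjusted p = 0.00107) over fl-/Y -Tx and by -0.27 (adjusted p = 0.0161) over fl-/Y +Tx ES cells. For fl-/Y +Tx over fl-/Y -Tx ES cells it was -0.13 (95% confidence interval -0.28 to 0.02, adjusted p = 0.172). Its 2 dimmer probes divided the change otherwise, with -0.30 (adjusted p = 0.0437 over all probes) and -0.25 (adjusted p = 0.0514) in fl-/Y +Tx over fl-/Y -Tx and -0.03 and -0.18 in KO/Y over fl-/Y +Tx cells. With the mean of the probes, fl-/Y +Tx over fl-/Y -Tx passed (-0.23, adjusted p = 0.0275) and KO/Y over fl-/Y +Tx did not (-0.16, adjusted p = 0.0871). Which step passed thus depends on the probe. All adjusted p-values are from limma.

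Ccnb2, the second B-type cyclin, was lower on day 4 by nearly as much as in KO/Y ES cells. Its signals were 4.26, 4.27 and 4.31 on the KO/Y arrays, 4.37, 4.38 and 4.36 on the fl-/Y +Tx arrays and 4.83, 4.85 and 4.85 on the fl-/Y -Tx arrays, so that both deleted groups lay close together and apart from fl-/Y -Tx ES cells. The log2 fold change was -0.57 (standard error 0.051, adjusted p = 4.4e-05) in KO/Y and -0.48 (adjusted p = 0.000384) in fl-/Y +Tx ES cells, both over fl-/Y -Tx ES cells, and -0.09 (adjusted p = 0.254) between KO/Y and fl-/Y +Tx ES cells. Ccnf encodes cyclin F, a subunit of a ubiquitin ligase. It gave 4.26, 4.19 and 4.20 in KO/Y, 4.30, 4.43 and 4.56 in fl-/Y +Tx and 4.77, 4.83 and 4.88 in fl-/Y -Tx ES cells, with log2 fold changes over fl-/Y -Tx ES cells of -0.61 in KO/Y (adjusted p = 0.000245) and -0.40 in fl-/Y +Tx cells (adjusted p = 0.00639). The signals of the 3 groups again did not overlap.

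Cdk1 itself showed another order. Its signal was 3.18, 3.18 and 3.16 on the KO/Y arrays, 3.49, 3.55 and 3.70 on the fl-/Y +Tx arrays and 3.25, 3.48 and 3.43 on the fl-/Y -Tx arrays, so KO/Y arrays were lowest and fl-/Y +Tx arrays highest. The log2 fold change was -0.41 (standard error 0.082, adjusted p = 0.00673) in KO/Y over fl-/Y +Tx ES cells. Against fl-/Y -Tx ES cells it was -0.22 in KO/Y (adjusted p = 0.0583) and 0.20 in fl-/Y +Tx cells (adjusted p = 0.109). The probes of this gene disagreed: the next brightest followed the probe used, with -0.32 in KO/Y over fl-/Y +Tx ES cells, while the dimmest probe gave 0.47 (adjusted p = 0.107 over all probes). With the mean of the probes the change was -0.09 (adjusted p = 0.439). The lower signal of Cdk1 in KO/Y than in fl-/Y +Tx ES cells thus rests on the 2 brighter probes. With quantile normalization 0.26 in fl-/Y +Tx over fl-/Y -Tx ES cells passed the test (adjusted p = 0.03). Ccna2, the cyclin of S and G2 phase, was likewise highest in fl-/Y +Tx ES cells, with 0.22 in fl-/Y +Tx over fl-/Y -Tx (adjusted p = 0.0537) and -0.20 in KO/Y over fl-/Y +Tx cells (adjusted p = 0.0736), and it passed the test in no comparison.

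Both the inhibitor of Cdk1 and its activating phosphatases were lower in KO/Y ES cells. Wee1, the inhibitory kinase, had signals of 1.05, 0.90 and 1.08 in KO/Y, 1.45, 1.31 and 1.49 in fl-/Y +Tx and 1.71, 1.76 and 1.71 in fl-/Y -Tx ES cells. The groups did not overlap, and Wee1 passed the test in every comparison, with log2 fold changes of -0.71 in KO/Y (standard error 0.074, adjusted p = 9.7e-05) and -0.31 in fl-/Y +Tx (adjusted p = 0.017) over fl-/Y -Tx ES cells and of -0.41 in KO/Y over fl-/Y +Tx cells (adjusted p = 0.00477). The second of these missed the threshold with slide as a block. Cdc25b gave 0.34, 0.09 and 0.15 in KO/Y, 0.62, 0.59 and 0.66 in fl-/Y +Tx and 0.80, 0.87 and 0.77 in fl-/Y -Tx ES cells, and its log2 fold change in KO/Y ES cells was -0.62 (adjusted p = 0.000216) against fl-/Y -Tx and -0.43 (adjusted p = 0.00379) against fl-/Y +Tx ES cells. Cdc25c was dimmer, with -1.66, -2.00 and -1.56 in KO/Y, -1.87, -1.75 and -1.63 in fl-/Y +Tx and -1.22, -1.15 and -1.31 in fl-/Y -Tx ES cells. It was lower in fl-/Y +Tx than in fl-/Y -Tx ES cells (-0.53, standard error 0.12, adjusted p = 0.0131), and KO/Y and fl-/Y +Tx arrays overlapped (0.01, 95% confidence interval -0.26 to 0.29). Cks2, a small protein that binds Cdk1, was lower in KO/Y than in fl-/Y -Tx ES cells and passed in no other comparison (-0.37, adjusted p = 0.00541).

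The mitotic kinases were lower in KO/Y than in fl-/Y -Tx ES cells for 5 of 5 genes, with a median of -0.466, and in fl-/Y +Tx over fl-/Y -Tx ES cells for 4 of 5, with a median of -0.372. In KO/Y over fl-/Y +Tx cells 2 of 5 were lower. The shares of all genes that were lower were 26.4%, 14.7% and 14.1% in the same order of comparisons. Plk1, the Polo-like kinase that acts from mitotic entry to cytokinesis, was among the brighter probes. Its signals of 4.96, 5.02 and 5.04 in KO/Y, 5.09, 5.12 and 5.12 in fl-/Y +Tx and 5.46, 5.50 and 5.45 in fl-/Y -Tx ES cells did not overlap between groups. The log2 fold change was -0.47 (standard error 0.054, adjusted p = 0.000172) in KO/Y and -0.36 (adjusted p = 0.00213) in fl-/Y +Tx ES cells over fl-/Y -Tx ES cells, and both passed the test with slide as a block as well. Aurka, which matures centrosomes and assembles the spindle, gave 4.10, 4.10 and 4.12 in KO/Y, 4.05, 3.91 and 4.15 in fl-/Y +Tx and 4.26, 4.38 and 4.40 in fl-/Y -Tx ES cells. Both deleted groups lay below fl-/Y -Tx ES cells and overlapped each other, with -0.24 (adjusted p = 0.0288) in KO/Y and -0.31 (adjusted p = 0.0171) in fl-/Y +Tx ES cells, and neither passed with slide as a block.

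Aurkb, the kinase of the chromosomal passenger complex, varied more between arrays. Its signals were -1.21, -1.63 and -1.72 on the KO/Y arrays, -1.08, -1.21 and -0.90 on the fl-/Y +Tx arrays and -0.69, -0.69 and -0.58 on the fl-/Y -Tx arrays. KO/Y array 1 met the lowest fl-/Y +Tx array, and fl-/Y -Tx arrays lay above all others. The log2 fold change was -0.86 (standard error 0.14, adjusted p = 0.000959) in KO/Y over fl-/Y -Tx ES cells and -0.46 (adjusted p = 0.0394) in KO/Y over fl-/Y +Tx ES cells, while -0.41 in fl-/Y +Tx over fl-/Y -Tx ES cells missed the threshold (adjusted p = 0.0589). The call of KO/Y over fl-/Y +Tx was lost with slide as a block (-0.47, adjusted p = 0.0847). With each array left out in turn it held only without KO/Y array 1 or fl-/Y +Tx array 2, with adjusted p between 0.0559 and 0.121 otherwise.

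Plk4, the kinase that starts centriole duplication, had the signals -2.78, -2.97 and -2.70 in KO/Y, -2.57, -2.53 and -2.38 in fl-/Y +Tx and -2.06, -2.14 and -2.05 in fl-/Y -Tx ES cells, which did not overlap. It was lower in every comparison, with log2 fold changes of -0.73 in KO/Y (standard error 0.085, adjusted p = 0.000177) and -0.41 in fl-/Y +Tx (adjusted p = 0.00913) over fl-/Y -Tx ES cells and of -0.32 in KO/Y over fl-/Y +Tx cells (adjusted p = 0.0248). The last of these was lost with normexp background correction (-0.16, adjusted p = 0.13) and without KO/Y array 2, fl-/Y +Tx array 2 or fl-/Y +Tx array 3. Nek2, a kinase of centrosome separation, gave 0.18, 0.07 and 0.11 in KO/Y, 0.07, -0.08 and 0.29 in fl-/Y +Tx and 0.40, 0.44 and 0.56 in fl-/Y -Tx ES cells. Here the deleted groups overlapped, and their log2 fold changes over fl-/Y -Tx ES cells were -0.35 in KO/Y (adjusted p = 0.0176) and -0.37 in fl-/Y +Tx cells (adjusted p = 0.0238), and neither passed with slide as a block.

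**Figure D3:**
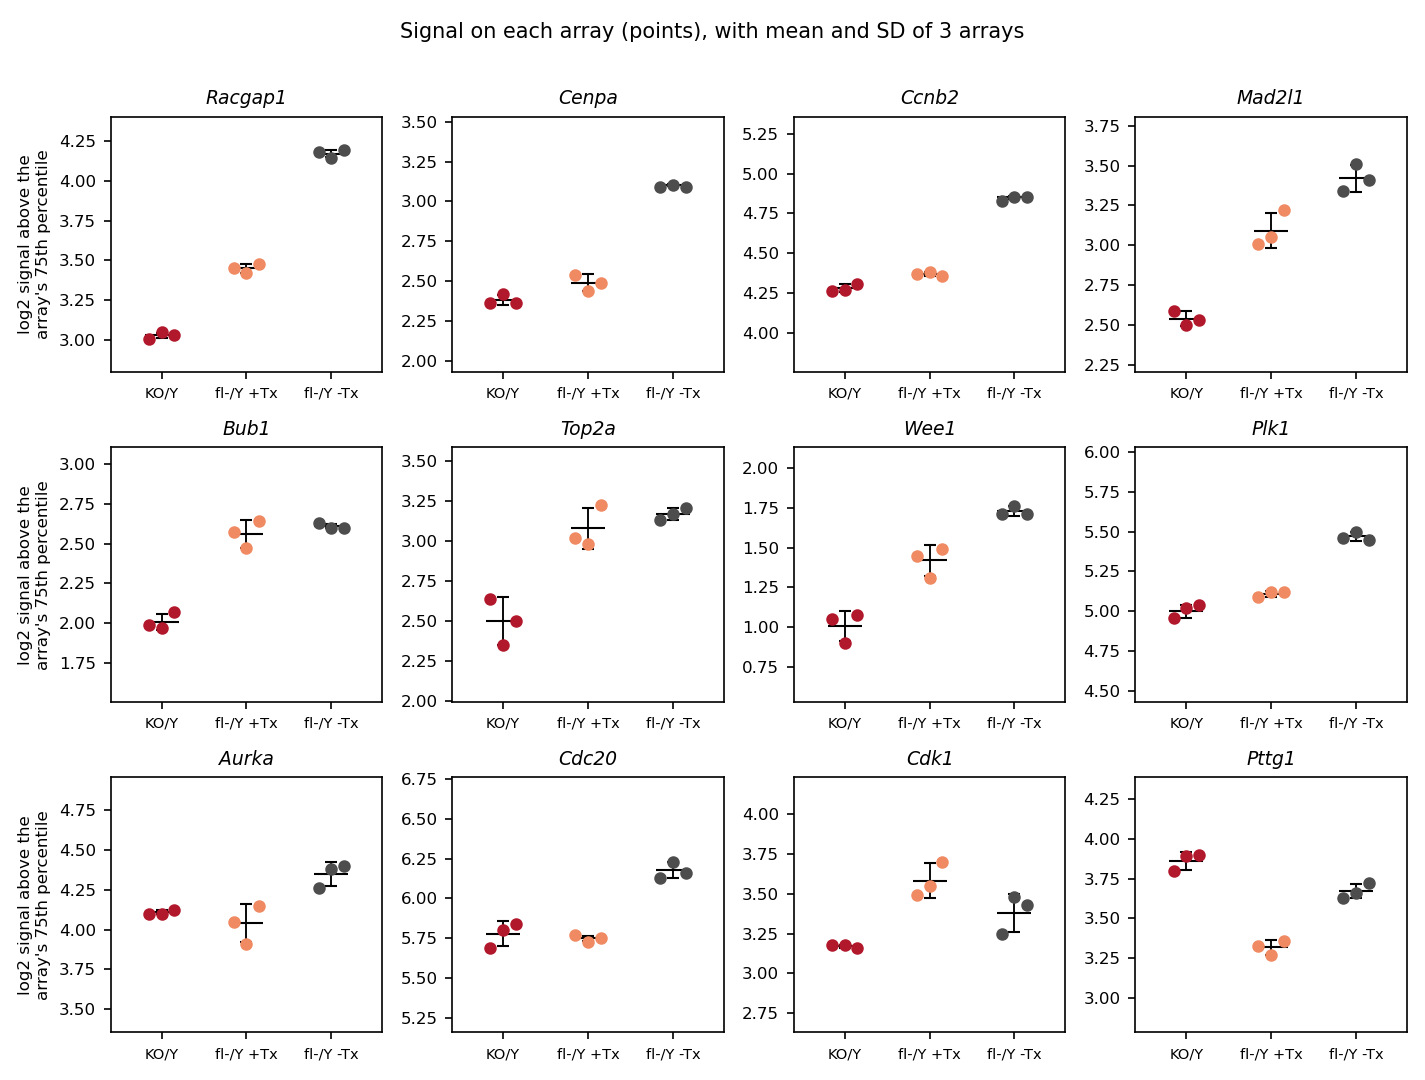
Signal on each array, as log2 relative to the array's 75th percentile (y axis, 1.6 log2 units in each panel) for 12 of the genes, in KO/Y, fl-/Y +Tx and fl-/Y -Tx ES cells. Points are arrays, and bars give the mean and SD of 3 arrays. Racgap1 lies between 3.01 and 3.05 in KO/Y and between 4.14 and 4.19 in fl-/Y -Tx ES cells, while Pttg1 is lowest in fl-/Y +Tx ES cells.

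Genes of the spindle checkpoint were lower in KO/Y than in fl-/Y -Tx ES cells for 5 of 6, with a median of -0.424. In fl-/Y +Tx over fl-/Y -Tx ES cells 3 of 6 were lower, namely Mad2l1, Bub3 and Cdc20, and in KO/Y over fl-/Y +Tx ES cells 3 of 6, namely Mad2l1, Bub1 and Bub1b. Of all genes tested 26.4%, 14.7% and 14.1% were lower in the same order of comparisons. Mad2l1 encodes the checkpoint protein that binds and holds Cdc20. Its signals were 2.59, 2.50 and 2.53 in KO/Y, 3.01, 3.05 and 3.22 in fl-/Y +Tx and 3.34, 3.51 and 3.41 in fl-/Y -Tx ES cells, with no overlap. The log2 fold change was -0.88 in KO/Y (standard error 0.077, adjusted p = 3.96e-05) and -0.32 in fl-/Y +Tx (adjusted p = 0.0166) over fl-/Y -Tx ES cells and -0.55 in KO/Y over fl-/Y +Tx cells (adjusted p = 0.00125). Its 2 dimmer probes gave -0.28 and -0.40 in KO/Y over fl-/Y -Tx ES cells but 0.04 and 0.10 in fl-/Y +Tx over fl-/Y -Tx ES cells, so the early difference was seen by the brightest probe alone. With the mean of the probes it was -0.06 (adjusted p = 0.56).

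Bub1, a kinase that recruits checkpoint proteins to the kinetochore, was lower in KO/Y ES cells than in both other groups. It gave 1.99, 1.97 and 2.07 in KO/Y, 2.57, 2.47 and 2.64 in fl-/Y +Tx and 2.63, 2.60 and 2.60 in fl-/Y -Tx ES cells. The fl-/Y +Tx and fl-/Y -Tx arrays overlapped (-0.05, 95% confidence interval -0.19 to 0.10), and the log2 fold change of KO/Y ES cells was -0.60 against fl-/Y -Tx (standard error 0.064, adjusted p = 0.000107) and -0.55 against fl-/Y +Tx cells (adjusted p = 0.00045). Its relative Bub1b had a similar order, with -0.42 (adjusted p = 0.0034) and -0.36 (adjusted p = 0.0136) for KO/Y over fl-/Y -Tx and over fl-/Y +Tx ES cells and -0.06 (adjusted p = 0.663) for fl-/Y +Tx over fl-/Y -Tx ES cells. Bub3 and Cdc20 were lower in fl-/Y +Tx than in fl-/Y -Tx ES cells and did not pass the test in KO/Y over fl-/Y +Tx ES cells.

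Bub3, which brings Bub1 to the kinetochore, had signals of 3.42, 3.35 and 3.46 in KO/Y, 3.46, 3.38 and 3.44 in fl-/Y +Tx and 3.77, 3.79 and 3.96 in fl-/Y -Tx ES cells. Cdc20, the activator of the anaphase-promoting complex, gave 5.69, 5.80 and 5.84 in KO/Y, 5.77, 5.73 and 5.75 in fl-/Y +Tx and 6.13, 6.23 and 6.16 in fl-/Y -Tx ES cells. In both genes the deleted groups overlapped and lay below every fl-/Y -Tx array. In fl-/Y +Tx over fl-/Y -Tx ES cells Bub3 changed by -0.41 (standard error 0.071, adjusted p = 0.00404) and Cdc20 by -0.43 (standard error 0.062, adjusted p = 0.0018), and in KO/Y over fl-/Y +Tx ES cells the values were -0.02 and 0.03. Ttk, the kinase at the head of the checkpoint, lay between -0.15 and -0.06 in the 3 comparisons, and its groups overlapped in each.

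Of the genes of the centromere, the kinetochore and the chromosomal passenger complex, 5 of 9 were lower in fl-/Y +Tx than in fl-/Y -Tx ES cells (median -0.265) and 5 of 9 in KO/Y than in fl-/Y -Tx ES cells (median -0.164). Among all genes tested 14.7% and 26.4% were lower in these comparisons. None of the 9 was called by limma in KO/Y over fl-/Y +Tx ES cells, where the median was -0.029 and 0 had an unadjusted p under 0.05. There 14.1% of all genes were lower and 12.1% higher, and 0 calls among so few genes does not set the group apart. With slide as a block 0 of the 9 were called in that comparison too, where 11.1% of all genes were lower and 9.15% higher. Cenpa, the histone variant that marks the centromere, had signals of 2.36, 2.42 and 2.36 in KO/Y, 2.54, 2.44 and 2.49 in fl-/Y +Tx and 3.09, 3.1 and 3.09 in fl-/Y -Tx ES cells. The deleted groups lay far below fl-/Y -Tx ES cells and close to each other, with log2 fold changes of -0.72 in KO/Y (standard error 0.055, adjusted p = 1.99e-05) and -0.61 in fl-/Y +Tx cells (adjusted p = 0.000174) over fl-/Y -Tx ES cells and of -0.11 (adjusted p = 0.183) between KO/Y and fl-/Y +Tx ES cells.

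Subunits of the Ndc80 complex, which binds spindle microtubules, differed in how far they could be read. Spc25 changed by -0.40 (adjusted p = 0.00136) and Ndc80 by -0.34 (adjusted p = 0.00976) in KO/Y over fl-/Y -Tx cells. Nuf2, their partner, was at 0.00 by its brightest probe (95% confidence interval -0.21 to 0.22), but its other probes gave -0.51 and 0.78, the widest disagreement between probes of 1 gene in the set, and no direction is given for it. In the passenger complex the scaffold Incenp changed by -0.40 in KO/Y (adjusted p = 0.000793) and -0.27 in fl-/Y +Tx cells (adjusted p = 0.0137) over fl-/Y -Tx ES cells, Cdca8 (borealin) by -0.16 (adjusted p = 0.0498) and -0.28 (adjusted p = 0.0087), and Birc5 (survivin) was at -0.05 and -0.03, with 95% confidence intervals of -0.19 to 0.08 and -0.16 to 0.11. Cenpe, a kinesin of the kinetochore, passed no test, and Cenpf was near background, with its probe well above background on 3 KO/Y, 1 fl-/Y +Tx and 2 fl-/Y -Tx arrays.

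Spindle motors and microtubule-binding proteins were lower in KO/Y than in fl-/Y -Tx ES cells for 7 of 9 genes (median -0.349), with 3 of 9 lower in fl-/Y +Tx over fl-/Y -Tx ES cells and 4 of 9 in KO/Y over fl-/Y +Tx ES cells. The shares among all genes tested were 26.4%, 14.7% and 14.1% in the same order. Racgap1 had the largest change of the 41 genes in KO/Y over fl-/Y -Tx ES cells. It encodes a GTPase-activating protein that forms the centralspindlin complex with Kif23 and is needed for cytokinesis. Its signals were 3.01, 3.05 and 3.03 on the KO/Y arrays, 3.45, 3.42 and 3.48 on the fl-/Y +Tx arrays and 4.18, 4.14 and 4.19 on the fl-/Y -Tx arrays, with the groups far apart relative to their spread. The log2 fold change was -1.14 in KO/Y (standard error 0.052, 2.21-fold lower, adjusted p = 8.84e-07) and -0.72 in fl-/Y +Tx (1.65-fold lower, adjusted p = 4.48e-05) over fl-/Y -Tx ES cells and -0.42 in KO/Y over fl-/Y +Tx ES cells (1.34-fold lower, adjusted p = 0.000655). The second probe of Racgap1 gave -1.09, -0.72 and -0.37 in the same order, and all 3 differences passed with slide as a block.

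Kif23, the motor subunit of centralspindlin, varied more between arrays, with 0.87, 0.37 and 0.68 in KO/Y, 0.89, 1.06 and 1.20 in fl-/Y +Tx and 1.20, 1.11 and 1.18 in fl-/Y -Tx ES cells. KO/Y arrays were lowest, and the other 2 groups overlapped. Its log2 fold change was -0.53 (standard error 0.13, adjusted p = 0.00965) in KO/Y over fl-/Y -Tx ES cells and -0.41 (adjusted p = 0.0486) in KO/Y over fl-/Y +Tx ES cells. The second call was lost with scaling by the median (adjusted p = 0.0539). With each array left out in turn it held only without KO/Y array 1 or fl-/Y +Tx array 1. Without KO/Y array 2 the value was -0.27 (adjusted p = 0.115). Kif4, a motor on chromosome arms, gave -0.02, -0.13 and -0.07 in KO/Y, -0.15, -0.22 and 0.06 in fl-/Y +Tx and 0.22, 0.30 and 0.31 in fl-/Y -Tx ES cells. Here both deleted groups lay below fl-/Y -Tx ES cells and overlapped, with -0.35 (adjusted p = 0.00696) in KO/Y and -0.38 (adjusted p = 0.0102) in fl-/Y +Tx ES cells.

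Of the other motors, Kif11, which pushes the spindle poles apart, was lower in KO/Y than in fl-/Y -Tx (-0.37, adjusted p = 0.000639) and than in fl-/Y +Tx cells (-0.29, adjusted p = 0.00539), and Kif20a, a motor of the midzone, only than in fl-/Y -Tx ES cells (-0.31, adjusted p = 0.0174). Prc1 bundles the microtubules of the spindle midzone. It had the order seen for Cdk1, with a signal of 3.35 ± 0.024 in KO/Y, 3.71 ± 0.052 in fl-/Y +Tx and 3.54 ± 0.051 in fl-/Y -Tx ES cells (SD, n = 3 arrays each), and changed by -0.37 in KO/Y over fl-/Y +Tx cells (adjusted p = 0.00237 from limma). Tpx2, an activator of Aurora A, changed by -0.40 in KO/Y over fl-/Y -Tx cells (adjusted p = 0.00175) by its brighter probe, while the dimmer probe gave 0.29 and the mean of both -0.06 (adjusted p = 0.674). Kif2c, a microtubule depolymerase, and Hmmr, a spindle-associated protein, were at -0.02 each in KO/Y over fl-/Y -Tx ES cells and passed the test in no comparison.

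Of the genes of chromosome structure and separation, Top2a was lower, Pttg1 higher and Espl1 not called in KO/Y ES cells. Top2a, the topoisomerase II alpha that disentangles sister chromatids, had signals of 2.64, 2.35 and 2.50 in KO/Y, 3.02, 2.98 and 3.23 in fl-/Y +Tx and 3.13, 3.17 and 3.21 in fl-/Y -Tx ES cells. KO/Y arrays lay below all others, which overlapped, and the log2 fold change was -0.67 (standard error 0.094, adjusted p = 0.000473) over fl-/Y -Tx and -0.58 (adjusted p = 0.00254) over fl-/Y +Tx ES cells. Pttg1 encodes securin, which inhibits separase until anaphase. It was the single gene of the set that was higher in KO/Y ES cells, with signals of 3.80, 3.89 and 3.90 in KO/Y, 3.33, 3.27 and 3.36 in fl-/Y +Tx and 3.63, 3.66 and 3.72 in fl-/Y -Tx ES cells. Every fl-/Y +Tx array was lowest, with -0.35 (adjusted p = 0.0039) over fl-/Y -Tx ES cells, and KO/Y ES cells were higher by 0.54 (standard error 0.06, adjusted p = 0.000369) against fl-/Y +Tx and by 0.19 (adjusted p = 0.0297) against fl-/Y -Tx ES cells. Only the first of these differences of KO/Y ES cells passed with slide as a block. A dim second probe of Pttg1 gave 0.76 and 0.91 for these differences and 0.15 in fl-/Y +Tx over fl-/Y -Tx ES cells, where the mean of both probes no longer passed (-0.10, adjusted p = 0.439). Espl1, which encodes separase, passed the test in no comparison, with 0.18 in fl-/Y +Tx over fl-/Y -Tx and -0.21 in KO/Y over fl-/Y +Tx ES cells.

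Whether a gene changed by more in one step than in the other was tested by the difference of the differences, KO/Y minus fl-/Y +Tx less fl-/Y +Tx minus fl-/Y -Tx, a contrast added after the values were seen. It was fitted with limma without slide and was not rerun in other settings, slide as a block included. Of the 41 genes, 5 lay above 0 in this test, where the early step was the more negative, against 5.1% of all genes tested, and 3 lay below 0, against 5.87%. The 5 were Pttg1 (0.89, adjusted p = 0.00131), Cenpa (0.49, adjusted p = 0.0137), Ccnb2 (0.39, adjusted p = 0.0249), Cdc20 (0.46, adjusted p = 0.0298) and Cdca8 (0.40, adjusted p = 0.0358). For Pttg1 the negative early step rests on the brighter probe. The dim probe of Pttg1 gave 0.15 in fl-/Y +Tx over fl-/Y -Tx and 0.76 in KO/Y over fl-/Y +Tx ES cells. The 3, a share near that of all genes, were Prc1 (-0.54, adjusted p = 0.0116), Bub1 (-0.50, adjusted p = 0.0225) and Cdk1 (-0.61, adjusted p = 0.0279). The sign for Cdk1 rests on its 2 brighter probes. Its dimmest probe gave 0.14 in fl-/Y +Tx over fl-/Y -Tx and 0.47 in KO/Y over fl-/Y +Tx ES cells. For the remaining genes, Racgap1 with 0.30 (adjusted p = 0.0721) and Top2a with -0.49 (adjusted p = 0.0958) included, a difference between the steps was not shown.

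Other genes of mitosis, 120 genes on 5 lists, were counted in the same way. Of the 120, 66 were lower and 7 higher in KO/Y over fl-/Y -Tx cells, with a median of -0.332. Of the other regulators of G2 and M phase 10 of 19 were lower, among them Foxm1, a transcription factor of mitotic genes (-0.89, adjusted p = 1.59e-05), Mybl2 (-0.72, adjusted p = 3.09e-05) and G2e3 (-1.20, adjusted p = 4.85e-05). Foxm1 and Mybl2 changed by -0.43 and -0.28 in fl-/Y +Tx over fl-/Y -Tx ES cells as well (adjusted p = 0.00245 and 0.0118). The study called changes above 2-fold and reported unaltered expression of Mybl2 in this comparison. The change given here is below that limit. Of the other centromere and kinetochore genes 21 of 36 were lower and 4 higher, led by Ska1 (-1.05), and of the other spindle and cytokinesis genes 17 of 28 were lower and 0 higher. Condensin and cohesin had 13 of 20 lower, with Wapl at -1.10. For the anaphase-promoting complex 5 of 17 were lower and 2 higher, with a median of -0.046, close to the 26.4% of all genes that were lower and below the 20.6% that were higher. Its inhibitor Fbxo5 was at -1.04 (adjusted p = 1.88e-06). The subunit Anapc10, 1 of the 2 called higher, was near background. Its probe was well above background on 3 KO/Y, 1 fl-/Y +Tx and 0 fl-/Y -Tx arrays. It passed the filter through the KO/Y arrays alone, so no size of change is given for it.

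Genes linked to arrest in G2 phase were mostly higher in KO/Y ES cells. In fl-/Y +Tx over fl-/Y -Tx ES cells 5 of 13 were higher and 1 was lower, against 11.9% and 14.7% of all genes tested. In KO/Y over fl-/Y -Tx ES cells 9 were higher and 1 was lower, against 20.6% and 26.4% of all genes. The median in this comparison was 0.368. Plk2 (0.80, adjusted p = 8.93e-05), Ccng1 (0.72, adjusted p = 0.000521), Gadd45b (0.61, adjusted p = 0.000593) and Rprm (0.52, adjusted p = 0.000512) changed most, and the member that was lower was Gadd45a (-0.40, adjusted p = 0.000755), named after its value was seen.

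Markers of ES cells and of other cell types were read in the same comparisons. All 8 markers of pluripotent ES cells were well above background on all 9 arrays, and their summed signal, in units of the 75th percentile of each array, was 172 to 194 on the KO/Y, 227 to 237 on the fl-/Y +Tx and 248 to 249 on the fl-/Y -Tx arrays. The median signal of these markers had another order, with 3.67 to 3.76 on the KO/Y, 3.75 to 3.80 on the fl-/Y +Tx and 3.46 to 3.56 on the fl-/Y -Tx arrays. In KO/Y over fl-/Y -Tx ES cells 4 of the 8 were lower and 1 was higher, where 26.4% of all genes were lower and 20.6% higher. In fl-/Y +Tx over fl-/Y -Tx ES cells 1 was lower and 1 higher, near the 14.7% and 11.9% of all genes. The same shares of all genes stand beside the counts of the other markers. Markers of fibroblasts, the cell type of feeder layers, were bright in every group. Of these 10 genes 10 were higher in KO/Y than in fl-/Y -Tx ES cells and 5 in fl-/Y +Tx than in fl-/Y -Tx ES cells, with summed signals of 541 to 580 in KO/Y, 478 to 501 in fl-/Y +Tx and 390 to 415 in fl-/Y -Tx ES cells. Primitive endoderm markers were dim, with summed signals of 5.21 to 6.5, 2.69 to 3.12 and 1.92 to 2.16 in the same order, and 8 of 8 were higher in KO/Y than in fl-/Y -Tx ES cells. In fl-/Y +Tx over fl-/Y -Tx ES cells 3 of them were higher and 2 lower. Sox17 was well above background on the KO/Y arrays alone. It passed the filter through those arrays, so its call as higher, included in the 8 of 8, is no separate support. The 4 genes measured as markers of 2-cell-like cells summed to 92.2 to 109 in KO/Y, 63.7 to 72 in fl-/Y +Tx and 6.09 to 6.84 in fl-/Y -Tx ES cells. The summed signal of the 41 mitotic genes was 427 to 442 in KO/Y, 450 to 480 in fl-/Y +Tx and 544 to 557 in fl-/Y -Tx ES cells. What part these other cells have in the lower mitotic signals was not tested.

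**Figure D4:**
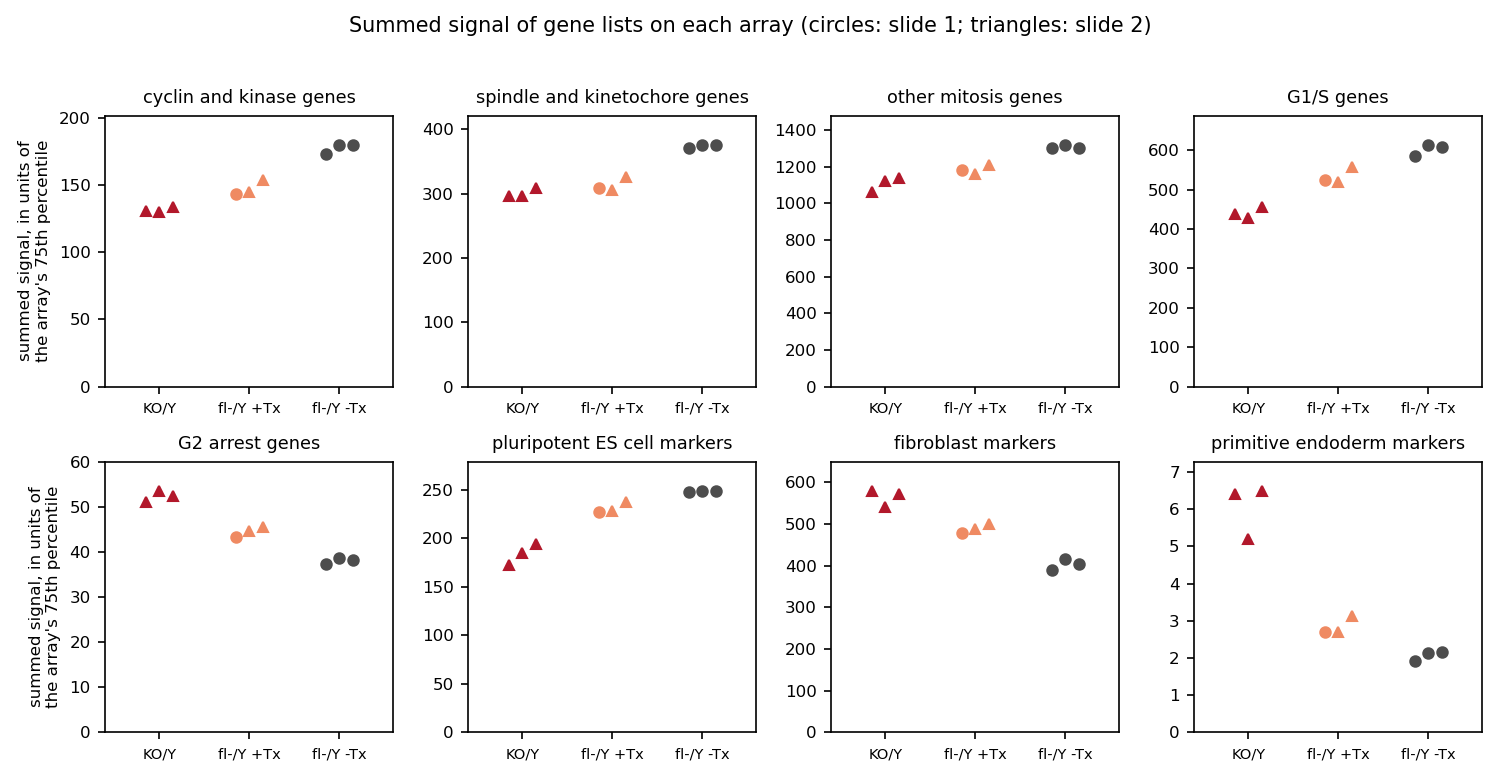
Summed signal of 8 gene lists (y axis, in units of the array's 75th percentile, from 0) on each array in KO/Y, fl-/Y +Tx and fl-/Y -Tx ES cells. Points are arrays, and their shape gives the slide. Cyclin and kinase genes sum to 130 to 134 in KO/Y and 173 to 180 in fl-/Y -Tx ES cells, while fibroblast markers sum to 541 to 580 and 390 to 415.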

How the data were processed

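RNA was measured on 1-colour Agilent arrays of the 8 × 60 K mouse format. The authors made the deposited intensity values with Agilent Feature Extraction 10.7.3.1, and each processed intensity is a spot's mean signal less a fitted background surface, divided by a spatial trend. A table deposited by the authors holds 1 signal per group on a linear scale and served as an alternative. It is proportional to the geometric mean of that group's scaled arrays. The constant log2 offset was 0.1665 for KO/Y, 0.1657 for fl-/Y +Tx and 0.1685 for fl-/Y -Tx ES cells. The study names NIA Array Analysis Software without settings.

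Log2 intensities were scaled in R 4.3.3 by subtracting each array's 75th percentile. Outlier spots were removed and the spots of a probe averaged. A probe was kept if it was well above background on all 3 arrays of any group. RefSeq accessions named 27235 of 55681 probes, and a gene was represented by its brightest probe. The 22432 genes were tested in 1 fit of 9 arrays with limma 3.58.1 (lmFit, eBayes, Benjamini-Hochberg). The precision is set by 3 arrays per group. The paper describes biological triplicates without tying arrays to samples. Of 100 genes simulated with a 1.5-fold change 50, 64 and 45 were recovered for fl-/Y +Tx over fl-/Y -Tx, KO/Y over fl-/Y +Tx and KO/Y over fl-/Y -Tx. Each simulation changed only these genes and 100 others. Far more genes were called in the data, which loosens the adjusted threshold, so these counts do not give the recovery in the data.

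The members, the lists and the motifs were chosen with earlier results of these data known. Signals on every array are given for the 10 called genes with the largest change per comparison and for Ccnb1, Cdk1, Plk1, Aurka, Cdc20 and Wee1, and other lists name at most 4 called genes, apart from Gadd45a. Alternatives changed 1 choice at a time. Promoters are RefSeq windows on GRCm38.p6.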

Additional observations from a re-analysis of the deposited data

How the results depend on the processing

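The medians of the 41 genes, the 14 cyclin and kinase genes and the 27 spindle and kinetochore genes stayed below 0 in every comparison and setting run. Counts of lower genes changed most with the slide, and the shares of all genes, given above, fell with them. With slide as a block 8 genes were lower in fl-/Y +Tx over fl-/Y -Tx and 17 in KO/Y over fl-/Y -Tx ES cells (0 higher), and within the slide common to both groups they numbered 5 for fl-/Y +Tx over fl-/Y -Tx and 6 for KO/Y over fl-/Y +Tx ES cells, from fewer arrays by construction. The median of the spindle and kinetochore genes in fl-/Y +Tx over fl-/Y -Tx ES cells was -0.266 in both settings, against -0.18 in the fit without the block. KO/Y over fl-/Y -Tx ES cells could not be fitted within a slide. Quantile normalization gave medians of the 41 genes of -0.176 in fl-/Y +Tx and -0.315 in KO/Y, both over fl-/Y -Tx ES cells, and normexp background correction gave -0.40, against -0.488, for the cyclin and kinase genes in KO/Y over fl-/Y -Tx ES cells.

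Higher genes in fl-/Y +Tx over fl-/Y -Tx ES cells numbered 3 with quantile normalization (12.9% of all genes) and 2 with an intensity trend in the variance (13%). There was 1 with the stricter filter, which keeps probes above background on all arrays (12.6%). There were 2 in KO/Y over fl-/Y +Tx ES cells with the mean of a gene's probes (12.5%) and 0 in KO/Y over fl-/Y -Tx ES cells without a filter (12%). The cause of these moves was not tested.

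With each array left out, lower genes numbered 13 to 22 in fl-/Y +Tx over fl-/Y -Tx, 10 to 15 in KO/Y over fl-/Y +Tx and 25 to 30 in KO/Y over fl-/Y -Tx ES cells, and higher genes 0 to 1, 1 to 1 and 0 to 1. The shares of all genes that were lower ranged from 8.34% to 17.2%, 11.1% to 13.1% and 22% to 27.6% in the same order. The count of 13 came without fl-/Y -Tx array 2. Medians then ranged from -0.281 to -0.231, -0.159 to -0.102 and -0.395 to -0.372 for the 41 genes, and from -0.248 to -0.13 for the spindle and kinetochore genes in fl-/Y +Tx over fl-/Y -Tx ES cells. Calls held in every setting run, the fits within 1 slide included, for 4 genes in fl-/Y +Tx over fl-/Y -Tx ES cells (Ccnb2, Ccnf, Cenpa and Racgap1), for 6 in KO/Y over fl-/Y +Tx (Bub1, Mad2l1, Prc1, Racgap1, Top2a and Pttg1) and for 16 in KO/Y over fl-/Y -Tx ES cells. The 16 passed fewer settings, since no fit within 1 slide was possible for that comparison. The share of all genes whose calls held in every setting was not counted. Without a filter on dim probes 15, 10 and 27 genes were lower, where 5.72%, 6.49% and 14.5% of all genes were lower. No paired analysis was possible because the arrays carry no replicate number that pairs them across groups. Signals of probes near background, such as that of Cenpf, limit what can be seen.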

Other observations

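Genes of the G1/S transition, which act before mitosis, were lower as well. In KO/Y over fl-/Y -Tx ES cells 12 of the 17 genes tested were lower and 0 were higher by limma (13 lower and 0 higher at an unadjusted p under 0.05), where 26.4% of all genes were lower, and their median log2 fold change was -0.336. Ccne1, which encodes cyclin E1, was at -1.06 (adjusted p = 4.8e-06), Pcna, the sliding clamp of DNA replication, at -0.79 (adjusted p = 8.01e-05), Cdc25a, a phosphatase that activates Cdk2, at -0.79 (adjusted p = 4.8e-05) and Rrm2, a subunit of ribonucleotide reductase, at -0.56 (adjusted p = 0.000129). The summed signal of the list was 429 to 455 in KO/Y, 520 to 558 in fl-/Y +Tx and 586 to 614 in fl-/Y -Tx ES cells.

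In KO/Y over fl-/Y +Tx ES cells 5 of the 17 were lower, where 14.1% of all genes were, with Ccne1 at -1.02 (adjusted p = 1.97e-05) and Pcna at -0.69 (adjusted p = 0.000434), and in fl-/Y +Tx over fl-/Y -Tx ES cells 3 were lower, a share of 17.6% that is near the 14.7% of all genes, namely Cdc25a (-0.29), Mcm7 (-0.26) and Cdt1 (-0.23).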
